A study of Mus musculus with 90 samples.

Results

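Chemokines and chemokine receptors were followed through 15 tissues of female mice in estrus and diestrus. Members were the genes whose symbol begins with Ccl, Cxcl, Ccr or Cxcr and a digit, with Cx3c, or with Xcl or Xcr and a digit. This rule found 59 of the 20414 genes listed, 40 of them ligands and 19 receptors, and no measured value entered it. Chemokines are small secreted proteins that draw leukocytes along a gradient, and their receptors are G protein-coupled receptors on the cells that move. Homeostatic ligands place lymphocytes in lymphoid organs, mucosa and skin, and inflammatory ligands call neutrophils, monocytes and T cells into injured tissue. One ligand may bind several receptors and one receptor several ligands, so that a tissue is described by both.

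The mice were C57BL/6 females, 10 weeks old by the labels. The estrus group and the diestrus group, called A and B in the labels, were told apart by the cells of a vaginal smear, and neither group received a treatment. Bulk RNA came from the aorta and a vein, brown adipose tissue (BAT) and white adipose tissue (WAT), heart and skeletal muscle, kidney, liver and spleen, stomach and duodenum, cerebrum and hypothalamus, and ovary and uterus (womb in the labels). Each tissue had 3 libraries in each phase, 90 in all, and the study took all tissues from 3 mice a phase. Levels are FPKM, mapped fragments scaled to transcript length and to the size of the library, and may be compared between genes. FPKM carry no read totals, and the replicates are few, which limits the precision of every value below.

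The defining genes of the labelled tissues were listed above 0 in every library of their own tissue and had their highest mean over 6 libraries there, except Myh11, a smooth muscle myosin, which came 2nd in the vein after the aorta. Single libraries overlapped for some: Gkn1 ranged from 4098 to 7495 FPKM in stomach and reached 7108 in another tissue. Cyp3a11, Hoxa11, Acta2, Eln and Myh11 also had a library of another tissue above the lowest of their own. BAT estrus replicate 3 stood apart: 12048 genes were listed at 0 in it, against 2404 to 4820 in the other 89 libraries, and 50 of the 59 members were at 0, against 4 to 22. BAT values are therefore also given without it. A mean of at least 1 FPKM in some tissue was reached by 53 members, of at least 10 FPKM by 31, and of at least 1 FPKM in all 15 tissues by 3, which were Cxcl12, Ccl27a and the neutrophil receptor Cxcr2. Ccl1, Ccl21b, Ccl26, Ccr1l1, Ccr8 and Cxcr1 stayed under a mean of 1 FPKM everywhere.

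**Figure D1:**
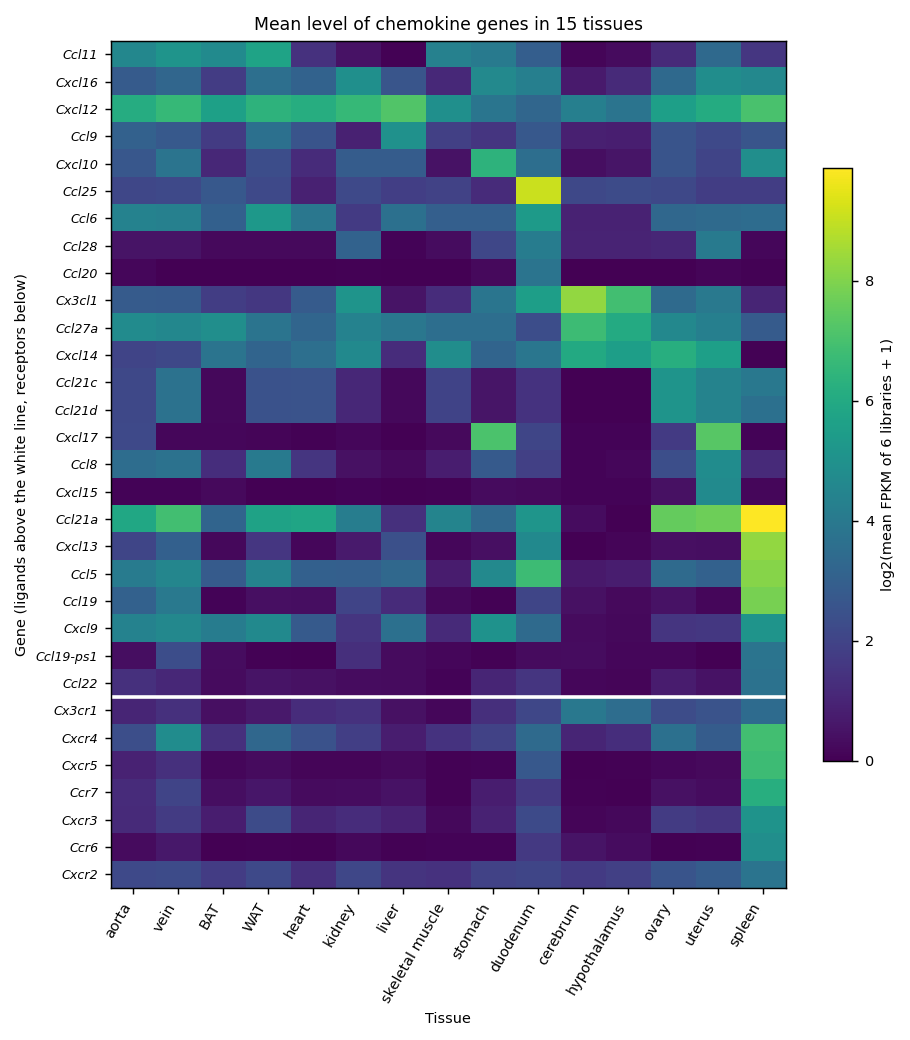
Mean level of the 31 members with at least 10 FPKM in some tissue, as log2(mean FPKM of 6 libraries + 1), in 15 tissues, ligands above the white line and receptors below. Receptors are brightest in the spleen column, while single ligands stand out in duodenum (Ccl25), cerebrum (Cx3cl1), and stomach and uterus (Cxcl17).

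Spleen held the highest mean level of 17 of the 19 receptors and of 10 of the 40 ligands. Each tissue was set against the mean of the other 14 with limma on log2(FPKM + 1), in one fit of all 90 libraries, and calls required both an absolute log2 difference of 1 or more and an adjusted p no higher than 0.05. This test covered 15226 genes, among them 41 members, 30 ligands and 11 receptors. In spleen 24 of the 41 members (58.5%) were called higher, beside 22.1% of all genes. These 24 included 10 of the 11 receptors tested. In bulk tissue a larger number of cells of a type cannot be told apart from more RNA per cell.

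Cxcr5, the receptor that brings B cells into follicles, measured 109 ± 8.99 FPKM in spleen (SD, n = 6) and 5.51 ± 10.2 in the next tissue, duodenum. Its log2 difference from the other tissues was 6.42 ± 0.19 (SE, limma adjusted p = 1.50e-39). Ccr7, which guides T cells and dendritic cells to lymphoid T zones, stood at 73.3 ± 8.88 FPKM in spleen and 3.12 ± 6.15 in vein (log2 difference 5.71 ± 0.20, limma adjusted p = 1.22e-36). Cxcr4, the receptor of Cxcl12 on most leukocytes, reached 116 ± 28.5 FPKM in spleen, 27.2 ± 7.32 in vein and 11.5 ± 5.82 in ovary, all 3 called higher. Ccr6 (28.8 ± 4.93 FPKM) and Cxcr3 (32.9 ± 1.65 FPKM), found on B cells and on activated T cells, were likewise called higher in spleen. For these 5 receptors the 6 spleen values did not overlap the 6 values of the next tissue.

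Among ligands, Cxcl13, the ligand of Cxcr5 made by follicular stromal cells, ranged from 271 to 363 FPKM in spleen with a median of 305 (log2 difference 7.35 ± 0.29, limma adjusted p = 3.28e-33). Ccl19, a Ccr7 ligand, measured 229.6 ± 49.3 FPKM in spleen and 14.8 ± 8.73 in vein. Ccl5, a ligand made by T cells and natural killer cells, measured 273 ± 34.6 FPKM in spleen and 108 ± 35.2 in duodenum, and was called higher in both. Ccl21a, the other Ccr7 ligand, was the most abundant member of the whole table, at 944 ± 183 FPKM in spleen. It measured 205 ± 111 in uterus, 186 ± 53.2 in ovary and 119 ± 78.4 in vein, and these 3 tissues, which overlapped each other, were called higher as well (log2 difference 3.15 ± 0.39, 3.28 ± 0.39 and 2.42 ± 0.39).

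The level of Ccl21a has to be read with its near-identical copies on mouse chromosome 4, among which an aligner may split reads. The coding sequences of Ccl21a, Ccl21b and Ccl21d in the GENCODE M21 transcripts are each 402 bases long, and Ccl21b and Ccl21d differ from Ccl21a at 2 bases, T84A and C194T, counted from 1 at the start codon with the base of Ccl21a first. Bases 174 to 214 of the coding sequence are shown to make plain how little separates these entries, with base 194 in capitals.
Ccl21a: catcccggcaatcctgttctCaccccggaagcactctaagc
Ccl21b: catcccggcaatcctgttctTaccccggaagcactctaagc
Ccl21d: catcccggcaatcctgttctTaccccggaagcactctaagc
In the table, Ccl21c and Ccl21d held the same FPKM in 89 of the 90 libraries, 36 of them with both at 0. The levels of these 2 entries are thus not separate measurements, and their split from Ccl21a and Ccl21b is uncertain. Ccl21c and Ccl21d were listed highest in ovary, each at 33.4 ± 17.4 FPKM, and Ccl21b did not exceed a mean of 0.60 FPKM.

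Mucosal ligands marked the gut, the uterus and the stomach. In duodenum 10 of the 41 members were called higher, beside 14.2% of all genes. Ccl25, which brings Ccr9-bearing lymphocytes to the small intestine, ranged from 316 to 693 FPKM in the 6 duodenum libraries with a median of 562. No other tissue reached a mean above 5.55 FPKM (log2 difference 7.12 ± 0.15, limma adjusted p = 1.11e-49). Its share of the summed ligand FPKM of duodenum was 58.1%. Ccr9 itself, the receptor, measured 3.06 ± 0.93 FPKM in duodenum and 5.36 ± 0.68 in spleen, with overlapping values. Ccl20, the Ccr6 ligand of the epithelium over lymphoid follicles, averaged 12.9 ± 9.07 FPKM in duodenum and 0.18 ± 0.13 in stomach, the next tissue, without overlap.

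Ccl28, a mucosal ligand of Ccr10 and Ccr3, was called higher in duodenum (16.7 ± 6.46 FPKM), uterus (15.5 ± 9.91 FPKM) and kidney, and its duodenum and uterus values overlapped. In uterus 12 of the 41 members were called higher, beside 16.8% of all genes, and in stomach 8, beside 11.9%. Cxcl17, an attractant of mucosal surfaces, was the shared feature of these organs, at 157 ± 220 FPKM in uterus and 136 ± 31.2 in stomach. The uterine mean rested on 1 library, estrus replicate 1 at 600.15 FPKM, and the uterine median was 61.9. Cxcl15, known as a lung chemokine, measured 25.8 ± 22.0 FPKM in uterus and 0.37 ± 0.35 in ovary, the next tissue, with 1 uterine library at 0.64 (log2 difference 3.86 ± 0.21, limma adjusted p = 1.26e-25). Cxcl10, an interferon-induced Cxcr3 ligand, was called higher in stomach with a wide spread, from 11.2 to 186 FPKM.

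In brain few members were called higher, and most of them were called higher elsewhere too. In cerebrum and in hypothalamus 4 of the 41 members were called higher, beside 20.3% and 21.9% of all genes. In both tissues these were Cx3cl1, Cx3cr1, Ccl27a and Cxcl14. Cx3cl1 was also called higher in duodenum and kidney, Cx3cr1 in spleen, and Cxcl14 in ovary, uterus, kidney and skeletal muscle. Only Ccl27a was called higher in brain alone. In both, 19 members (46.3%) were called lower, beside 19.2% and 14.8% of all genes. Cx3cl1, a membrane-bound ligand that neurons make, ranged from 287 to 357 FPKM in cerebrum with a median of 313, and averaged 118 ± 5.10 in hypothalamus. Its receptor Cx3cr1, which marks microglia, stood at 14.7 ± 1.39 FPKM in cerebrum and 10.46 ± 0.85 in hypothalamus. The log2 differences in cerebrum were 5.23 ± 0.13 for the ligand and 2.42 ± 0.09 for the receptor. Ccl27a, a Ccr10 ligand best known from skin, measured 109 ± 19.95 FPKM in cerebrum and 65.8 ± 5.18 in hypothalamus, with overlap. Cxcl14, which has no agreed receptor among the classical ones, was highest in ovary (71.6 ± 12.5 FPKM) with overlap of cerebrum (63.1 ± 5.29 FPKM).

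The 250 bases before the starts of 4 ligands that marked a tissue are printed because each holds TATAAA, the letters of the TATA box, which places the start of transcription of many tissue-restricted genes. RefSeq promoters (GRCm38.p6) were matched for 43 of the 59 members, in 50 windows. TATAAA on the gene's strand was found in 10 of the 50 windows (20%) and in 7.59% of all 32851. Several patterns were searched after the levels were known and this one was picked among them, so the shares are a description. Capitals mark the match, and a match is not a site in use.
Ccl25, chr8:4349338-4349587, plus strand: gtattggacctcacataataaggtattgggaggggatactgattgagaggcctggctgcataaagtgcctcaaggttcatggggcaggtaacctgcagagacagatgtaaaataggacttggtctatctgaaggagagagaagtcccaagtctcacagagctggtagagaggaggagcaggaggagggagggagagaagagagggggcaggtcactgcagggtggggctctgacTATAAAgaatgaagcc
Cx3cl1, chr8:94771930-94772179, plus strand: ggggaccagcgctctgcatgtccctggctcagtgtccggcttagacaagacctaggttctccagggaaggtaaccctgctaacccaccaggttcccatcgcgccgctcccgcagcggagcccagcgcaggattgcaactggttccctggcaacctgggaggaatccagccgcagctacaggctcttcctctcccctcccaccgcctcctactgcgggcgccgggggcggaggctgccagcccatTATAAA
Cxcl13, chr5:95956689-95956938, plus strand: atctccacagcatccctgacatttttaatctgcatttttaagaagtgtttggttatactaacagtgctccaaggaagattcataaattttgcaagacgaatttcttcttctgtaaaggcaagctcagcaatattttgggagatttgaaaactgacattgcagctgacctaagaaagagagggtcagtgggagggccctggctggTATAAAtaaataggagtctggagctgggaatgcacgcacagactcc
Cxcl15, chr5:90794284-90794533, plus strand: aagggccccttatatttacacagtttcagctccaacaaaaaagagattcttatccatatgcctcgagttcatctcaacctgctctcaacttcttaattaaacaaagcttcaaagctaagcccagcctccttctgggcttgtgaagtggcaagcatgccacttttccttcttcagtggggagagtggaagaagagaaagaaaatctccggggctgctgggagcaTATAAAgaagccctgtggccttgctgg
The match began 16 bases before the start in Ccl25, 46 in Cxcl13, 27 in Cxcl15 and 6 in Cx3cl1. The other members with a match were Ccl8, Ccl9, Ccl12, Cxcl3, Cxcl9 and Cxcr4.

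**Figure D2:**
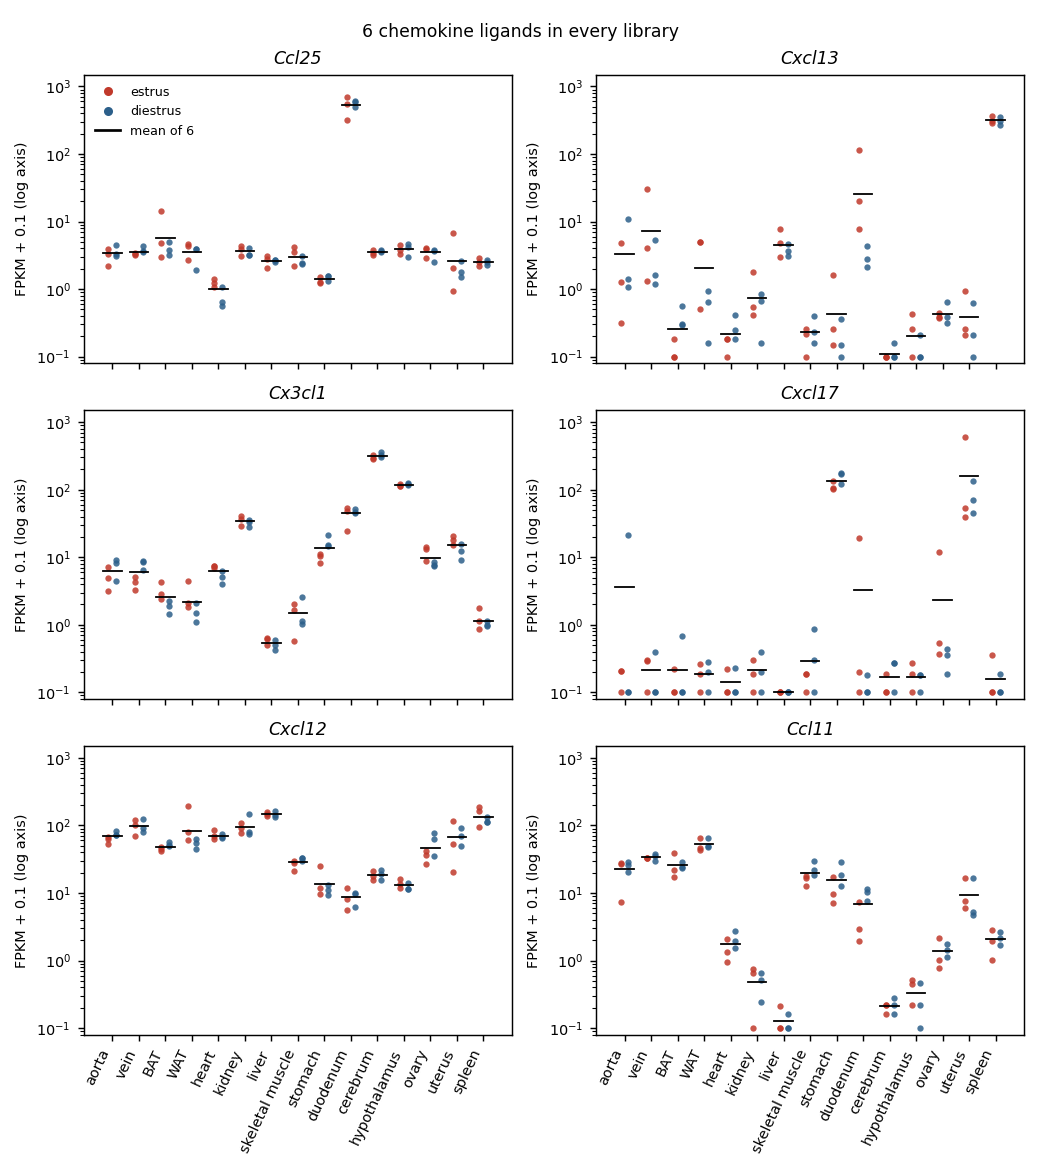
FPKM + 0.1 on a log axis of 6 ligands in every library of 15 tissues, with estrus and diestrus libraries as separate points and the mean of 6 as a line. Ccl25 is above 300 FPKM in every duodenum library and below 15 in every library of the other tissues, while Cxcl12 is above 5 FPKM in all 90.

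Cxcl12 led the ligands in fat, muscle, heart, aorta, kidney and liver, while Ccl21a led in vein (119 FPKM, beside 97.5 for Cxcl12). Cxcl12, the ligand of Cxcr4 made by stromal cells, was the most abundant ligand of aorta, BAT, WAT, heart, kidney, liver and skeletal muscle. It measured 148 ± 10.7 FPKM in liver and 133 ± 34.2 in spleen, which overlapped, and 8.52 FPKM on average in duodenum, the lowest tissue (log2 difference 1.82 ± 0.17 in liver and -2.48 ± 0.17 in duodenum). Ccl11, the eosinophil attractant eotaxin, averaged 52.7 ± 9.78 FPKM in WAT and 33.5 ± 2.53 in vein, without overlap. Ccl9, a Ccr1 ligand of myeloid cells, averaged 30.6 ± 3.34 FPKM in liver and 11.5 ± 4.54 in WAT, without overlap. Cxcl16, the Cxcr6 ligand, was highest in kidney (29.0 ± 3.14 FPKM) and overlapped uterus (27.8 ± 21.1 FPKM). Ccl6, a myeloid Ccr1 ligand, was highest in duodenum (40.9 ± 21.1 FPKM) and overlapped WAT (37.5 ± 14.7 FPKM). Cxcl9, a Cxcr3 ligand, gave 33.4 ± 5.90 FPKM in spleen and 31.5 ± 26.8 in stomach, and Ccl8 26.7 ± 25.4 FPKM in uterus, both with overlap of the next tissue.

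The leading receptor was Cxcr4 in aorta, vein, WAT, heart, skeletal muscle, stomach, duodenum, ovary and spleen. It was Cxcr2 in kidney (3.24 ± 0.58 FPKM) and uterus (6.42 ± 4.07 FPKM), and Cx3cr1 in both brain tissues. In BAT it was Ccr10, at 2.44 ± 1.48 FPKM, with Cxcr2 next at 2.41. Cxcr4 led Cxcr2 narrowly in skeletal muscle (1.75 and 1.69 FPKM) and stomach (2.91 and 2.84). Cxcr2 led Cxcr4 narrowly in uterus (6.42 and 6.26). In duodenum Cxcr4 averaged 9.685 ± 15.9 FPKM, a wide spread. Ccr10 was the only receptor other than Cx3cr1 with its highest mean outside spleen, at 3.30 ± 1.47 FPKM in aorta.

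The counts of members called higher in these tissues were 13 in vein (beside 14.4% of all genes), 8 in WAT (8.18%), 6 in ovary (20.8%), 5 in aorta (10.1%), 5 in kidney (12.5%), 5 in liver (8.12%), 2 in BAT (8.65%), 2 in skeletal muscle (6.45%) and 1 in heart (9.69%). The share of the 41 members was above that of all genes in spleen, vein, uterus, duodenum, WAT, stomach, aorta and liver, and below it in the other 7 tissues. These shares include members that passed the filter only through the tissue where they are high, as Cxcl15 did through uterus (94.4% of its summed tissue means). Without BAT estrus replicate 3 the BAT count was 3, and the share of all genes in that fit is not given.

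Ligands and their receptors did not peak in the same tissue as a rule. Over 29 pairs, Spearman's rho across the 15 tissue means lay between -0.09 and 0.88 with a median of 0.47, and was above 0 in 28. These points share libraries and the scale of FPKM, and rho is given as a description. Cxcl13 and Cxcr5 gave the highest value (0.88, and 0.85 without spleen), followed by Cxcl16 and Cxcr6 (0.82, and 0.85 without spleen). Cx3cl1 and Cx3cr1 gave 0.68, and 0.90 without spleen. Ccl25 and Ccr9 gave 0.17, and Ccl28 and Ccr10 0.03. The receptor was highest in spleen in 26 of the 29 pairs and the ligand in 9, and both partners shared the highest tissue in 10.

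Estrus was then compared with diestrus within each tissue, the question of the study. The limma fit of each tissue covered genes averaging 1 FPKM or more over its 6 libraries, which gave 394 member tests over the 15 tissues, from 11 members in cerebrum to 41 in spleen. No member was called in any tissue. Of all genes tested, 0% were called in aorta, vein, BAT, WAT, heart, kidney, liver, stomach, duodenum, cerebrum, hypothalamus, ovary and uterus, 0.00936% in skeletal muscle and 0.00798% in spleen, 1 gene in each of the last 2. An unadjusted p under 0.05 was found in 48 of the 394 member tests (12.2%), beside 7.84% of the 185469 tests of all genes. All 3 estrus values lay apart from all 3 diestrus values in 52 member tests (13.2%), beside 15.0% of all tests. In libraries simulated for each tissue with 200 changed genes, the share called at a log2 change of 1.5 ran from 0% in uterus, 39.5% in BAT and 49.0% in duodenum to 96.5% in heart and 98.0% in hypothalamus. At a log2 change of 3 it ran from 73.0% in BAT to 99.5% in cerebrum and hypothalamus.

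One fit of all 90 libraries, which shares 1 estimate of the spread between tissues, called members in 17 of 615 tests (2.76%), beside 1.14% of the tests of all genes. Of the 41 members in this fit, 7 were called in duodenum (beside 3.22% of all genes), 4 in uterus (4.73%), 2 in BAT (6.26%), and 1 each in stomach (1.66%), WAT (0.131%), vein (0.112%) and spleen (0.0591%). When each library of the tissue was left out in turn, 5 of the 17 were called every time, namely Ccl19, Cxcl13, Cxcr4 and Cxcr5 in duodenum and Ccl28 in uterus. The other 12 were lost without at least 1 library. Tests that share a tissue share its 6 libraries.

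**Figure D3:**
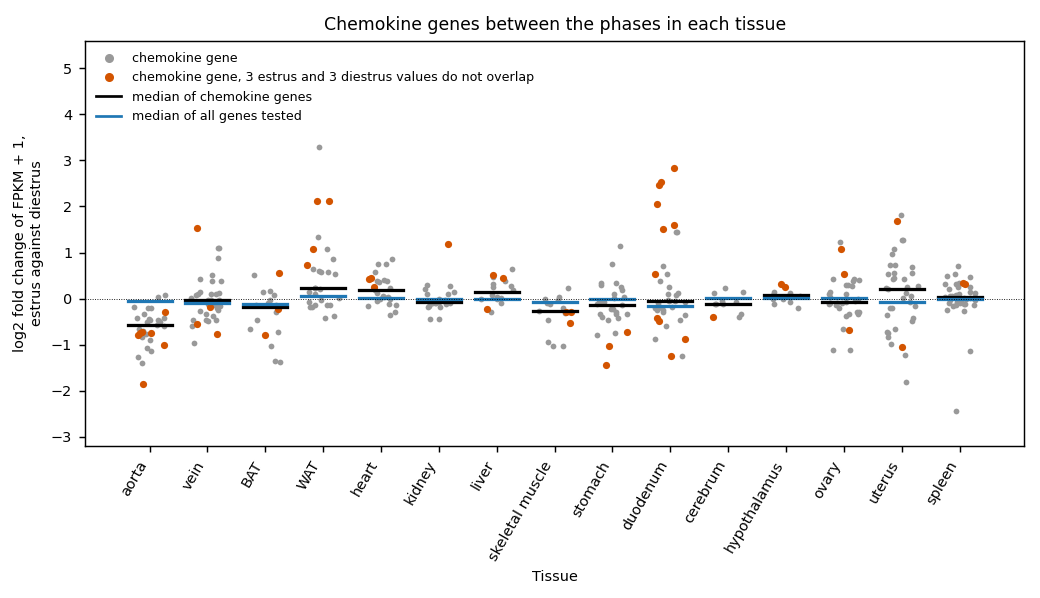
Log2 fold change of FPKM + 1, estrus against diestrus, of each tested member in each tissue, with members whose 3 estrus and 3 diestrus values do not overlap in orange. The black line is the members' median and the blue line that of all genes tested, and the lines lie farthest apart in aorta, at -0.58 and -0.05.

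Duodenum held the largest number of members without overlap. In duodenum 7 of 38 members lay wholly higher in estrus, beside 4.51% of all 12410 genes, and 4 wholly lower, beside 22.1%. The 7 were Cxcl13, Ccl19, Cxcr5, Ccr7, Ccr6, Cxcr4 and Cxcr3. Of these, Ccl19, Cxcr5, Ccr7 and Ccr6 were under 1 FPKM in all diestrus libraries and passed the filter of this test only through estrus, so that they had to differ, and the count of 7 supports nothing by itself. An unadjusted p under 0.05 was found for 11 of the 38, beside 1677 of the 12410 genes. The members' median log2 fold change was -0.06 and that of all genes -0.16.

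Cxcl13 measured 113, 7.73 and 20.3 FPKM in the estrus libraries and 4.31, 2.69 and 2.00 in diestrus. All estrus values lay above all diestrus values, and replicate 1 was the highest by far. The log2 fold change was 2.83 ± 0.87 (SE, limma adjusted p = 0.368), and in the fit of all 90 libraries the adjusted p was 4.00e-04. Its receptor Cxcr5 gave 26.2, 1.82 and 4.22 FPKM in estrus against 0.47, 0.12 and 0.28 in diestrus. Again the groups did not overlap and estrus replicate 1 led (log2 fold change 2.52 ± 0.78, limma adjusted p = 0.368, and 3.90e-06 in the fit of all 90 libraries). That fit pools the spread over all tissues, and the median of the tissue means of Cxcr5 was 0.125 FPKM. Its p-values therefore do not measure the spread of the duodenum libraries alone.

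Ccl19 measured 10.4, 4.80 and 3.06 FPKM in estrus beside 0.58, 0 and 0 in diestrus. These groups lay well apart, with 2 diestrus libraries listed at 0 (log2 fold change 2.47 ± 0.42, limma adjusted p = 0.368, and 1.30e-03 in the fit of all 90 libraries). Ccr7, its receptor, gave 7.52, 2.24 and 1.54 FPKM in estrus against 0.28, 0.58 and 0.47. Ccr6 gave 8.21, 0.95 and 2.59 FPKM against 0.30, 0.37 and 0.33, and Cxcr4 41.8, 3.80 and 6.90 against 1.15, 2.18 and 2.28. In each of these receptors estrus replicate 1 was the highest library and no diestrus value reached an estrus value. All 3 were called in the fit of all 90 libraries (adjusted p = 4.35e-03, 8.10e-05 and 2.98e-04). Ccl20 measured 22.9, 25.0 and 9.59 FPKM in estrus beside 4.84, 11.2 and 3.64 in diestrus, with 1 diestrus value above the lowest estrus value.

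Markers of B cells moved with this group. All 10 listed B cell genes had a log2 fold change above 0 in duodenum, 8 of them without overlap, with a median of 2.46. Their summed level was 631, 81.5 and 118 FPKM in estrus beside 27.0, 49.1 and 28.8 in diestrus, again highest in estrus replicate 1, and none of the 10 was at 0. T cell markers were above 0 in 11 of 11 tested genes, with sums of 82.2 to 109.9 FPKM in estrus beside 59.6 to 74.8 in diestrus. Blood endothelium markers were below 0 in 6 of 6 genes, with sums of 14.4 to 19.7 FPKM in estrus beside 22.9 to 31.6 in diestrus. The part of these cells in the result was not tested. Without estrus replicate 1 the log2 fold changes were 2.06 for Ccl19, 1.81 for Cxcl13, 1.58 for Cxcr5, 1.13 for Cxcr4 and 0.996 for Ccr7, none was called (the lowest limma adjusted p of these 5 was 0.1002), and Ccr6 was under the filter. In the fit of all libraries without it, Ccl19, Cxcl13, Cxcr5 and Cxcr4 were called, while Ccr7 and Ccr6, at 0.996 and 0.989, were under the log2 limit.

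The members that lay wholly lower in duodenum included Ccl28, Ccl11 and Cxcl9. Ccl28 measured 6.12, 13.0 and 16.9 FPKM in estrus beside 24.8, 19.7 and 19.5 in diestrus, and Ccl11 2.80, 1.82 and 7.19 against 10.3, 11.3 and 7.61. Ccl11 was called in the fit of all 90 libraries (log2 fold change -1.26, adjusted p = 0.0102), but not without estrus replicate 2 (-0.93) or diestrus replicate 1 (adjusted p = 0.0615). The dominant ligands of the organ did not separate by phase. Ccl25 gave 316, 693 and 544 FPKM in estrus beside 581, 493 and 604 in diestrus (log2 fold change -0.18 ± 0.33), and Ccl5 64.0, 170.34 and 111 against 102, 90.1 and 110.26 (0.08 ± 0.35).

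**Figure D4:**
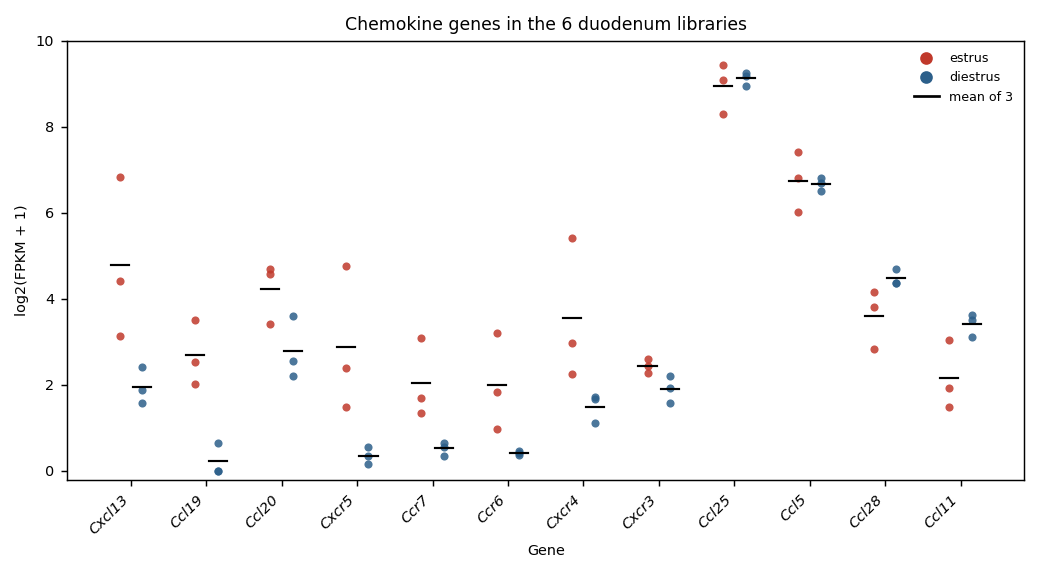
Log2(FPKM + 1) of 12 members in the 6 duodenum libraries, with the mean of 3 as a line. Cxcl13, Ccl19, Cxcr5, Ccr7, Ccr6, Cxcr4 and Cxcr3 lie wholly higher in estrus, Ccl28 and Ccl11 wholly lower, and Ccl25 and Ccl5 overlap.

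In aorta most members lay below 0. Of 32 members tested, 30 had a log2 fold change below 0, with a median of -0.58 beside -0.05 for all genes. None lay wholly higher in estrus, beside 2.39% of all genes, and 7 wholly lower, beside 9.54%, among them Cx3cr1, Ccr10, Cxcl12, Cxcl16, Ccl2 and Ccl21a. Ccl2, the monocyte attractant that binds Ccr2, measured 1.08, 1.08 and 1.44 FPKM in estrus beside 3.32, 1.90 and 5.73 in diestrus. Its groups lay apart and diestrus replicate 3 was highest (log2 fold change -0.999 ± 0.326, limma adjusted p = 0.933). Cx3cr1 gave 0.58, 0.40 and 0.50 FPKM in estrus against 1.18, 0.95 and 2.46, and Ccl21a 16.7, 12.1 and 12.4 against 18.0, 27.95 and 262. Cx3cr1 was under 1 FPKM in all estrus libraries and passed the filter only through diestrus, so that it had to differ. It was under the filter without diestrus replicate 1 or 3, and its place among the 7 supports nothing by itself.

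Diestrus replicate 3 of the aorta was also the highest library for leukocyte markers. It held a T cell marker sum of 73.6 FPKM, against 8.17 to 16.6 in the other 5 libraries, a neutrophil sum of 106 against 1.48 to 10.6, and a B cell sum of 56.4 against 2.80 to 22.0. All 8 T cell, 7 B cell and 4 neutrophil genes tested were below 0. Without this library 18 of 26 members were below 0, with a median of -0.17. Blood endothelium markers were also below 0 in 6 of 6 genes, with sums of 209 to 299 FPKM in estrus beside 345 to 355 in diestrus. The part of these cells was not tested.

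In vein 1 of 35 members lay wholly higher in estrus, beside 5.28% of all genes, and 3 wholly lower, beside 12.9%. Cx3cl1, which endothelium presents on its surface, measured 5.06, 3.2 and 4.22 FPKM in estrus beside 8.57, 8.41 and 6.41 in diestrus. No value overlapped (log2 fold change -0.78 ± 0.18, limma adjusted p = 0.412). Its receptor Cx3cr1 gave 1.09, 1.00 and 1.13 FPKM in estrus against 2.12, 1.56 and 2.46, also apart (-0.54 ± 0.17). Blood endothelium markers lay below 0 in 6 of 6 genes, with overlapping sums of 348 to 475 FPKM in estrus beside 449.8 to 601 in diestrus. Ccr7 lay wholly higher at 0.87, 0.99 and 15.7 FPKM against 0.15, 0.22 and 0.86. It passed the filter of the single-tissue fit only through its highest estrus library, so the count of 1 supports nothing by itself. In the fit of all 90 libraries it was called (log2 fold change 1.52, adjusted p = 0.0263). The estrus library with 15.7 FPKM, replicate 3, had a B cell marker sum of 243 FPKM, against 5.79 to 8.99 in the other 5, and a T cell sum of 203 against 10.4 to 24.0, and their part was not tested. Without this library Ccr7 was under the filter in the single-tissue fit, and the log2 fold change in the fit of all libraries was 0.49 (adjusted p = 0.836). That call was also lost without diestrus replicate 1 (adjusted p = 0.278) or 2 (0.0839).

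In WAT 19 of 28 members had a log2 fold change above 0, with a median of 0.24 beside 0.06 for all genes. In WAT 4 of 28 members lay wholly higher, beside 9.25% of all genes, and none wholly lower, beside 2.74%. An unadjusted p under 0.05 was found for 8, beside 714 of the 11952 genes. Ccl27a measured 16.9, 14.1 and 19.2 FPKM in estrus beside 9.63, 10.1 and 8.94 in diestrus, a tight separation (log2 fold change 0.74 ± 0.14, limma adjusted p = 0.791). Ccl24, an eotaxin of macrophages, gave 8.51, 4.01 and 6.41 FPKM against 2.94, 1.81 and 2.42 (1.07 ± 0.25, limma adjusted p = 0.791). Ccl21a gave 222, 11.4 and 54.9 FPKM in estrus beside 13.4, 1.10 and 4.51 in diestrus. Those values overlapped, estrus replicate 1 was highest, and the fit of all 90 libraries called the gene (log2 fold change 3.29, adjusted p = 0.0400). That call was lost without estrus replicate 1 (log2 fold change 2.26, adjusted p = 1), estrus replicate 3 (adjusted p = 0.0900), diestrus replicate 2 (0.509) or diestrus replicate 3 (0.176). Ccl21c and Ccl21d, the copies, lay wholly higher with the same values as each other. Both were under the filter of the single-tissue fit without estrus replicate 1, so they passed it through estrus. As these are 2 of the 4 members wholly higher, the count of 4 supports nothing by itself. Lymphatic endothelium markers were above 0 in 4 of 4 genes tested, with sums of 52.8, 9.72 and 23.7 FPKM in estrus beside 8.97, 7.17 and 14.56 in diestrus, and their part was not tested.

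In BAT 1 of 18 members lay wholly higher, beside 12.0% of all genes, and 2 wholly lower, beside 18.1%. Ccl27a measured 15.5, 25.0 and 21.2 FPKM in estrus beside 31.8, 39.0 and 36.3 in diestrus, opposite to WAT. The groups lay apart (log2 fold change -0.79 ± 0.20, limma adjusted p = 0.229), and the value without estrus replicate 3 was -0.82. Cxcl12 lay lower by -0.23 ± 0.11, and by -0.29 without that library. Cx3cl1 lay higher at 2.79, 2.34 and 4.26 FPKM against 2.13, 1.78 and 1.36 (0.57 ± 0.29, and 0.38 without that library). Ccl12 and Ccr10, called in the fit of all 90 libraries, were both at 0 in it. Ccr10 gave 1.54, 2.83 and 0 FPKM against 3.49, 4.13 and 2.64, and Ccl12 1.38, 0 and 0 against 0.84, 2.05 and 6.00. Without estrus replicate 3 the log2 fold changes in the fit of all libraries were -0.49 for Ccr10 (-1.04 with it) and -1.14 for Ccl12 (-1.35 with it), and neither was called (adjusted p = 0.360 and 0.201). Ccl12 was also lost without estrus replicate 2 or diestrus replicate 3, and Ccr10 was under the filter without any other BAT library.

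In the uterus the spread between libraries was wide. In uterus 1 of 37 members lay wholly higher, beside 3.24% of all genes, and 1 wholly lower, beside 4.67%. Ccl28 measured 30.1, 21.6 and 18.0 FPKM in estrus beside 12.4, 8.91 and 2.03 in diestrus, with no overlap. The log2 fold change was 1.68 ± 0.56 (limma adjusted p = 0.897), and 6.47e-05 was the adjusted p in the fit of all 90 libraries. Without diestrus replicate 3, the lowest library, the log2 fold change was 1.04. Xcl1, the ligand of Xcr1 on cross-presenting dendritic cells, gave 0.90, 2.38 and 0.96 FPKM against 3.22, 2.52 and 6.57. Its groups were apart by a narrow gap (log2 fold change -1.05 ± 0.42, and adjusted p = 0.0117 in the fit of all 90 libraries), and the call was lost without estrus replicate 1 or 3 or diestrus replicate 3 (adjusted p between 0.0596 and 0.150). Cxcl15 scattered in estrus, at 0.64, 58.4 and 5.42 FPKM, around the diestrus values of 42.9, 22.8 and 24.8, and was called lower in that fit, but not without estrus replicate 1 (log2 fold change -1.81 with it and -0.62 without). Ccl12, a monocyte attractant, gave 1.91, 4.06 and 4.49 FPKM against 12.6, 3.45 and 15.9, with overlap, and was called in 2 of the 6 fits that left out a uterine library.

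The neutrophil ligands Cxcl1, Cxcl2, Cxcl3 and Cxcl5, which bind Cxcr2, were all above the filter only in uterus. Cxcl5 measured 0.30, 1.71 and 28.9 FPKM in estrus beside 0.11, 0.53 and 0.40 in diestrus, and Cxcl2 0.11, 0.12 and 14.7 against 0.23, 0.06 and 0.06. Estrus replicate 3 was the highest of the 6 libraries for all 4 ligands, and the groups overlapped for each. Cxcl2, Cxcl3 and Cxcl5 passed the filter in uterus only through this library, so that their place above it supports nothing by itself. Cxcr2 gave 3.35, 6.09 and 14.3 FPKM against 6.12, 5.39 and 3.28. Neutrophil markers were above 0 in 6 of 6 genes tested, with sums of 1130, 305 and 1165 FPKM in estrus beside 145, 315 and 13.6 in diestrus. That same estrus library held a squamous epithelium sum of 810 FPKM, against 8.24 to 40.3 in the other 5, and the part of these cells was not tested.

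Stomach had no member wholly higher in estrus, beside 1.64% of all genes, and 3 of 29 wholly lower, beside 12.0%. Ccl8, a Ccr8 ligand in the mouse, measured 2.17, 4.63 and 1.67 FPKM in estrus beside 6.55, 8.15 and 13.1 in diestrus. The groups did not touch (log2 fold change -1.45 ± 0.36, limma adjusted p = 0.671). Cx3cl1 gave 10.3, 11.1 and 8.12 FPKM against 15.2, 14.7 and 21.1, and Ccl28 2.24, 2.55 and 0.81 against 4.86, 4.79 and 4.27. Ccl28 was called in the fit of all 90 libraries (log2 fold change -1.03, adjusted p = 0.0461), and in 1 of the 6 fits that left out a stomach library, without estrus replicate 2. Squamous epithelium markers ranged from 223 to 21670 FPKM in estrus beside from 3.49 to 2677 in diestrus, and simple epithelium from 2842 to 4519 and from 3820.0 to 4737, and their part was not tested.

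Kidney, ovary and heart each had few members without overlap. In kidney 1 of 22 lay wholly higher, beside 4.25% of all genes, and none wholly lower, beside 3.73%. That member was Ccl28, at 13.8, 6.70 and 13.2 FPKM in estrus beside 4.51, 4.66 and 3.32 in diestrus (log2 fold change 1.19 ± 0.25, limma adjusted p = 1). In ovary 2 of 32 lay wholly higher, beside 8.13%, and 1 wholly lower, beside 5.58%. Ovarian Cxcr4 gave 17.0, 20.01 and 10.9 FPKM against 7.85, 5.02 and 8.23, and ovarian Ccl21a 122, 198 and 118 against 240.3, 217 and 223. Both pairs of groups were apart, in opposite directions (log2 fold change 1.07 ± 0.25 and -0.67 ± 0.20). In heart 3 of 25 lay wholly higher, beside 7.91%, and none wholly lower, beside 3.84%. They were Ccl2, at 2.97, 2.90 and 2.64 FPKM against 1.68, 1.55 and 2.37, and the pair of Cx3cl1 and Cx3cr1.

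The remaining tissues gave small differences. Liver had 2 of 18 members wholly higher, beside 4.48% of all genes, and 1 wholly lower, beside 6.84%. Hepatic Cxcl14 measured 1.47, 1.75 and 2.16 FPKM against 1.01, 0.60 and 1.34, and hepatic Ccl9 30.8, 28.5 and 25.6 against 32.1, 31.6 and 35.4 (log2 fold change 0.50 ± 0.16 and -0.22 ± 0.09). Skeletal muscle had none of 16 wholly higher, beside 4.27%, and 3 wholly lower, beside 21.9%. Those 3 were Ccl11, Ccl9 and Cxcl12, and Ccl11 gave 16.7, 17.6 and 12.7 FPKM against 21.5, 18.6 and 29.8 (-0.53 ± 0.19). Without estrus replicate 1, Ccl21a, Ccl21c and Ccl21d were called lower in skeletal muscle. The share of all genes called in that fit is not given. Ccl21c and Ccl21d are not separate measurements, and their split from Ccl21a is uncertain. In muscle all 8 macrophage genes tested were below 0 as well, with sums of 40.4 to 51.1 FPKM in estrus beside 51.5 to 71.5 in diestrus, and their part was not tested.

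In spleen 2 of 41 lay wholly higher, beside 3.09% of all genes, and none wholly lower, beside 5.70%. These were Cxcr2, at 14.7, 15.3 and 13.3 FPKM in estrus beside 11.5, 10.9 and 11.4 in diestrus, and Ccr1, both receptors of myeloid cells. The log2 fold changes were small and tight, 0.33 ± 0.07 and 0.32 ± 0.11. Neutrophil markers were above 0 in 10 of 10 genes in spleen, 8 without overlap, with sums of 450.3 to 1495 FPKM in estrus beside 187 to 297 in diestrus, and their part was not tested. Cxcr5 gave 116, 99.7 and 106 FPKM in spleen in estrus and 122, 110.0 and 99.6 in diestrus, and Cxcl13 306, 284 and 363 against 356, 303 and 271. Both overlapped in spleen. Ccl19-ps1, a pseudogene, scattered between 0 and 26.4 FPKM and was called lower in the fit of all 90 libraries, but lost without estrus replicate 1 or 3 or diestrus replicate 1 or 3.

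In cerebrum none of 11 members lay wholly higher, beside 4.92% of all genes, and 1 wholly lower, beside 2.88%. It was Ccl27a, at 105, 104 and 73.6 FPKM in estrus beside 131, 122 and 116 in diestrus (log2 fold change -0.40 ± 0.14, limma adjusted p = 1). Cerebral Cx3cl1 overlapped, at 290.1, 325 and 287 FPKM against 357, 326 and 301. In hypothalamus 2 of 12 lay wholly higher, beside 9.96%, and none wholly lower, beside 9.64%. Cxcl14 there gave 54.1, 43.8 and 49.5 FPKM against 39.7, 40.6 and 43.1 (0.25 ± 0.08), and Ccl12 2.11, 1.34 and 1.36 against 0.97, 1.23 and 0.98 (0.33 ± 0.14).

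The difference between estrus and diestrus was also compared between tissues, with a moderated F test of the interaction in the fit of all 90 libraries. It called 5 members, Ccl28, Cx3cl1, Cxcr5, Ccl27a and Ccr6, beside 3.88% of the 15226 genes. Ccl28 gave an adjusted p of 5.58e-04. The single-tissue fits covered it in 5 tissues, with log2 fold changes above 0 in uterus, kidney and ovary and below 0 in stomach and duodenum, from -1.03 to 1.68. Cx3cl1 (adjusted p = 0.0189) spanned -0.78 in vein to 0.57 in BAT and lay above 0 in 7 of 14 tissues. Ccl27a (adjusted p = 0.0357) spanned -0.79 in BAT to 0.74 in WAT. Both kept an adjusted p under 0.05 without BAT estrus replicate 3 (0.0246 and 0.0434). Cxcr5 (adjusted p = 0.0206) and Ccr6 (0.0456) gave log2 fold changes of 2.52 and 1.59 in duodenum, against -0.04 and -0.26 in spleen. The single-tissue fits covered Cxcr5 in 3 tissues and Ccr6 in 2, the other tissues being under their filter. The F test itself used all 15 tissues for each gene. Without replicate 1 of every group, 0 members were called, beside 1.96% of all genes, and with a pseudocount of 0.1 in place of 1, 1 member, beside 2.19%. Leaving out each library in turn kept Ccl28 and Cx3cl1 called in 90 of 90 fits, Cxcr5 in 86, Ccl27a in 82 and Ccr6 in 34. The highest adjusted p among these fits was 0.109 for Cxcr5, without duodenum estrus replicate 1, 0.0871 for Ccl27a, without WAT estrus replicate 3, and 0.154 for Ccr6, also without duodenum estrus replicate 1.

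**Figure D5:**
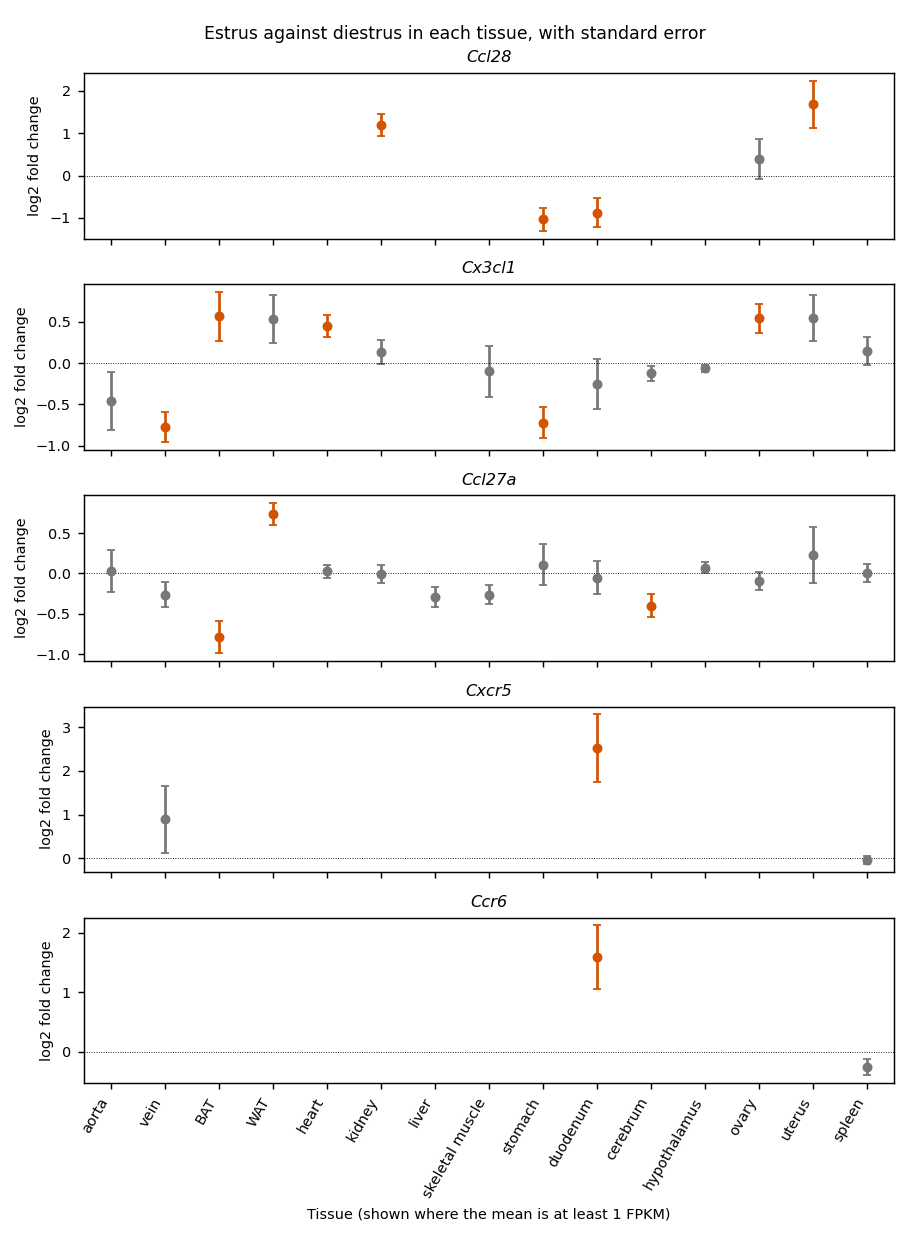
Log2 fold change of FPKM + 1, estrus against diestrus, with its standard error from limma, of the 5 members called in the interaction test, in each tissue with a mean of at least 1 FPKM, in orange where the 3 estrus and 3 diestrus values do not overlap. Ccl28 lies above 0 in kidney and uterus and below 0 in stomach and duodenum.

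Other genes of chemokine signalling outside the naming rule showed no call either. The list held 27 genes, among them the scavenging receptors Ackr1 to Ackr4, the platelet chemokines Pf4 and Ppbp, the chemerin gene Rarres2 with its receptor Cmklr1, the protease Dpp4, and G proteins, kinases and guanine exchange factors below the receptors. All 27 were in the table and gave 314 tests. None was called, and 29 tests (9.24%) had an unadjusted p under 0.05, 15 higher and 14 lower in estrus. The lowest p belonged to Gnai2, a G protein subunit of these receptors, in skeletal muscle. It measured 47.2, 45.4 and 42.8 FPKM in estrus beside 55.1, 57.0 and 60.4 in diestrus, without overlap (log2 fold change -0.34 ± 0.07, limma adjusted p = 0.0938).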

How the data were processed

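RNA was extracted from 15 tissues of mice in estrus and diestrus, and 90 libraries (TruSeq kit) were sequenced on BGISEQ-500. The authors filtered reads with SOAPnuke, aligned them to GRCm38.p5 with Bowtie2 2.2.5 and quantified genes with RSEM 1.2.8, per the methods and the submitters' processing notes. They deposited 1 table of FPKM values for 20414 genes, with no counts, so read totals are not known and the count test of the study was not run. In the single-tissue fits, p-values measure the spread between 3 libraries a group. In the fits of all 90 libraries they measure a spread pooled over all groups. The unit is not written in the table and was taken from its notes and values. Gene identifiers were paired with RefSeq symbols for 20265 genes.

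Values were tested as log2(FPKM + 1) with limma 3.58.1 (trend, R 4.3.3), for genes averaging 1 FPKM or more, with Benjamini-Hochberg adjustment over all genes tested. A fold change on this scale understates changes of low genes. Calls needed both an absolute log2 of 1 or more and an adjusted p no higher than 0.05, and the interaction test the adjusted p alone. The fits were tested on simulated data. Tables and plots used Python 3.11.15 with pandas 2.3.3, numpy 2.4.6, scipy 1.17.1 and matplotlib 3.10.9. The members, gene lists and pairs were chosen with earlier results of these data known. Named genes were, in each tissue, the most abundant ligand and receptor, members called, and the 2 of lowest p without overlap, and, over tissues, members called in the interaction, of listed pairs or of at least 10 FPKM, with the gene of lowest p of other lists. The motif, marker libraries and the neutrophil ligands were described after their values were seen. Other settings are given in the closing section.

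The labels and the study's methods give different ages, and the labels' was used. Results of 1 member are not reported here, though it stays in the counts.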

Additional observations from a re-analysis of the deposited data

Results flagged for a closer look

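In 5 members the difference between estrus and diestrus itself differed between tissues, by the moderated F test of limma in the fit of all 90 libraries. Ccl28, with an adjusted p of 0.000558, was higher in the 3 estrus libraries of uterus and of kidney and lower in those of stomach and duodenum, without overlap in any of these 4 tissues. Cx3cl1 had an adjusted p of 0.0189, with values apart in BAT, heart and ovary on the estrus side and in vein and stomach on the diestrus side. Ccl27a had an adjusted p of 0.0357, with WAT on one side and BAT and cerebrum on the other. Cxcr5 had an adjusted p of 0.0206 and Ccr6 one of 0.0456, and in both duodenum was the only tissue without overlap among those of the single-tissue fits. The B cell marker sum of the duodenum moved with Cxcr5 and Ccr6, from 27.0 to 49.1 FPKM in diestrus to 81.5 to 631 in estrus, and its part was not tested. Without any 1 of 4 duodenum libraries, estrus replicate 1 (adjusted p = 0.109) and diestrus replicates 1, 2 and 3 (0.0539, 0.0836 and 0.0669), Cxcr5 was not called. For Ccl27a the 8 libraries with this effect were BAT estrus replicate 1 and diestrus replicates 2 and 3, and WAT estrus replicates 1 and 3 and diestrus replicates 1, 2 and 3, with adjusted p between 0.0555 and 0.0871. Ccr6 was lost in 56 of 90 such fits.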

How the results depend on the processing

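Within a tissue, estrus and diestrus libraries of the same replicate number did not deviate together. Their r lay between -0.52 and 0.44, and in 0 of 15 tissues did every pair exceed 0.1. These pairs come from different mice, so they cannot show a shared mouse. Between tissues of one phase, mean r was 0.045 for libraries of the same number and -0.022 for other numbers. Without a block, the fits of all 90 libraries treat libraries as independent. With the replicate number as a block, 0 members were called within tissues. In the fit of all 90 libraries the block was the replicate number within each phase. With it the interaction test called 5 members, beside 4.24% of all genes. No other count of calls moved by over 1.5 times with a block. One fit of all 90 libraries called 17 members between the phases (2.76% of member tests, beside 1.14% of all tests), where the single-tissue fits called 0: vein 1, BAT 2, WAT 1, stomach 1, duodenum 7, uterus 4 and spleen 1. The cause was not tested. A pseudocount of 0.1 raised the members called higher against the other 14 tissues to 11 in aorta, 13 in WAT, 6 in heart, 13 in stomach and 17 in duodenum, and left 1 in the interaction test. Scaling by the median of ratios gave 9 in liver. Leaving out single libraries gave 0 to 3 members called between the phases. All 3 were in skeletal muscle without its estrus replicate 1, and Ccl21c and Ccl21d among them are not separate measurements. Leaving out 1 replicate number of every group gave 3 to 5 higher in aorta, 1 to 3 in heart, 3 to 5 in kidney and 3 to 5 in liver. Shares of all genes are not given for these counts by tissue under other settings. A shift of the whole table therefore cannot be told apart from one of the members. The interaction test called 0 to 10 members, 0 without replicate 1, 3 without replicate 2 or 3, 9 without stomach estrus replicate 2 and 10 without uterus estrus replicate 2. The share of all genes called rose as well in the last 2, from 3.88% to 10.8% and 16.3%. Of 304 values of 28 fold changes (in each tissue, the up to 2 members of lowest p without overlap) under these settings, 300 kept direction and side of the limits, 4 were called (all in one fit of the 90 libraries) and 0 reversed. As these members were chosen without overlap, leaving out a library, the block or the pseudocount could not have reversed them, so the 0 supports nothing by itself. Leaving out each library of the tissue from the one fit, chosen after seeing the data, kept 5 of its 17 calls every time.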
